A study of Mus musculus with 72 samples.

Results

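IKAROS binding was mapped by ChIP-seq in resting B cells from the spleen of C57BL/6 mice of 2 genotypes, Hmgn1+/+n2+/+ (WT) and Hmgn1-/- n2-/- (DKO, lacking both HMGN1 and HMGN2), with 2 biological replicates per genotype, each with a deposited list of peaks. Both genotypes shared the strain, the cell type and the antibody (anti-Ikaros, Active Motif), and each had 1 input library of B cells; age, sex and the extent of the deleted alleles are not given in the sources used here. These 4 lists hold 29941 of the 1156918 peaks in the 64 lists of the series, which has 72 samples from resting B cells, embryonic stem cells and embryonic fibroblasts. Peaks of the 4 lists that overlapped by at least 1 bp were merged into 11454 sites. Of these, 3232 sites were called in both WT lists and in no DKO list (WT-only sites), 3549 were called in all 4 lists (shared sites), 16 were called in both DKO lists and no WT list, and 4657 had other patterns of calls, such as 2880 sites seen in WT replicate 2 alone. The number of WT-only sites depends on the lists: it was 464 with the top 4838 peaks of each list, 1869 with peaks within 1000 bp merged, 1901 with the WT local background raised as described below, and 6269 without WT replicate 1.

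IKAROS, encoded by Ikzf1, is a zinc finger transcription factor of lymphocytes that binds DNA as a dimer and works with chromatin remodelling complexes, among them NuRD, to repress or activate genes. It is required for B cells to arise and for their precursors to mature, and it acts beside factors such as PAX5, EBF1 and ETS1 at genes of B cell identity, antigen receptor signalling and metabolism. HMGN1 and HMGN2 are small proteins that bind nucleosomes without regard to DNA sequence, lower chromatin compaction and concentrate at active promoters and enhancers. The study asked whether their loss alters the binding of B cell transcription factors to chromatin.

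The 4 sequences below show what IKAROS sites look like (mm9, plus strand, 299 bases each, from the reference genome and not from reads). The first pair are the windows at the strongest shared site, at the start of Arrdc3 (chr13:81024957-81025255), and at the strongest WT-only site, 4203 bp from the start of Ublcp1 (chr11:44288810-44289108), both with the peak summit at base 150. The second pair were chosen after their sequences were seen, because each holds a CCGGAAG match far from the summit: a WT-only site 6140 bp from the start of Gh and 6265 bp from that of Cd79b (chr11:106169419-106169717), and a shared site 1980 bp from Zfp36 (chr7:29166965-29167263), with the summit at base 40. Capitals mark matches, on either strand, to TGGGAA, the core of the known IKAROS motif, and to AGGAAG and CCGGAAG, which hold the GGAA core of ETS factors.
Arrdc3 shared site: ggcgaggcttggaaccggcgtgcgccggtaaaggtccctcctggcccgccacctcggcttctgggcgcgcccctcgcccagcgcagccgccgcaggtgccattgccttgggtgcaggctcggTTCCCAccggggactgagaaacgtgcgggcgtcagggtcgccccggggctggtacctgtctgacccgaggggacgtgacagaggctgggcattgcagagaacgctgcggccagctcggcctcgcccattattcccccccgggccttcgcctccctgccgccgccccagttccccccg
Ublcp1 WT-only site: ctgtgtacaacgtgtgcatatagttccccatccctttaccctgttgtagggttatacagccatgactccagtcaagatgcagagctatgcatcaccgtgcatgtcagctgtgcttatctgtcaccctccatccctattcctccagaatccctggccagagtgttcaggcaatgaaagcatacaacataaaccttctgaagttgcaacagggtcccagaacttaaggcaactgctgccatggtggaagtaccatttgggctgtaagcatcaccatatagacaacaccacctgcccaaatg
Gh and Cd79b WT-only site: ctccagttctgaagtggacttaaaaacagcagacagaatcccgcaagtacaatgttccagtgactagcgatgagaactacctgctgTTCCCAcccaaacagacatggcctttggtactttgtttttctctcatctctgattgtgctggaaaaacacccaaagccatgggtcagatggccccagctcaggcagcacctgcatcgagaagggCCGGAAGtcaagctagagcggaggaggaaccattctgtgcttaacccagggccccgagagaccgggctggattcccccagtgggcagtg
Zfp36 shared site: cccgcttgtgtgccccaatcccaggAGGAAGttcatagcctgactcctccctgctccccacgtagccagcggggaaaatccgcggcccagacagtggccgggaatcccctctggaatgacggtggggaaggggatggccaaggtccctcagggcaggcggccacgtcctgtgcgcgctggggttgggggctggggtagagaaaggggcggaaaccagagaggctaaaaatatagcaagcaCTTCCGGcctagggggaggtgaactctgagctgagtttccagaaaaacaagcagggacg
At Arrdc3 a TGGGAA match lay 24.5 bp from the summit, whereas the Ublcp1 window held a match to none of the 3 motifs. In the Gh and Cd79b window the CCGGAAG match lay 174 bp from the summit, and at Zfp36 it lay 204 bp away, while the Zfp36 window also held an AGGAAG match 11.5 bp from the summit. Both of the latter sites overlapped an ETS1 peak in both WT libraries of the same cells.

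The IKAROS lists were shorter in DKO cells. The WT lists held 9102 and 10969 peaks and the DKO lists 5032 and 4838, so that the genotypes did not overlap. The fall was 1.02 on the log2 scale (SE 0.12, limma over 16 antibodies, adjusted p = 0.0066), or 0.494 of the WT number. The numbers of 9 of the 16 antibodies of the series (56.2%) were likewise called lower in DKO, so a fall is common in this series. With 2 libraries against 2, an exact permutation test cannot give a p below 0.333, so the limma p rests on the spread that the antibodies share. Peaks with an edge 1000 bp or less from a protein-coding transcription start are called promoter peaks here. The WT lists held 4128 and 4989 of them and the DKO lists 2572 and 2390, and the remaining, distal peaks were 4974 and 5980 against 2460 and 2448. The fall was 0.87 at promoters (limma adjusted p = 0.0095, with 50% of the antibodies called) and 1.15 away from them (limma adjusted p = 0.0047, with 62.5% called). Promoter peaks took 45.4% and 45.5% of the WT lists and 51.1% and 49.4% of the DKO lists, and the promoter fall was smaller than the distal fall by 0.28 (SE 0.06, limma adjusted p = 0.031), a direction called in 5 of the 16 antibodies (31.2%). That difference missed the threshold under 7 of 12 alternatives: with the replicate block (limma adjusted p = 0.073), without WT replicate 1 (0.097), WT replicate 2 (0.091) or DKO replicate 1 (0.062), with the 5 B cell antibodies alone (0.085), with chromosomes 1 to 19 (0.055) and with the local background raised (0.55). The promoter fall missed it without DKO replicate 2 (0.057).

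**Figure D1:**
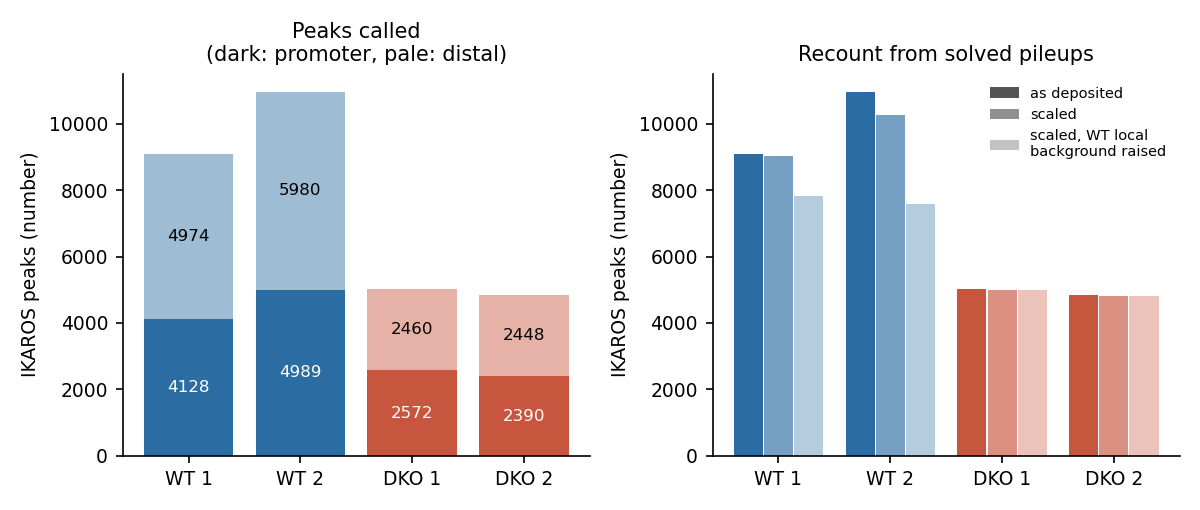
Left, number of IKAROS peaks in each library, split into promoter (dark) and distal (pale) peaks; right, the same libraries as deposited, with ChIP values scaled to the lowest genome background, and scaled with the WT local background raised 1.79-fold to the DKO level. WT bars are higher than DKO bars in each version, and the gap narrows from 9102 and 10969 against 5032 and 4838 to 7831 and 7599 against 4986 and 4807.

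Input depth and local background separated the genotypes, whereas ChIP depth overlapped between them. Read pileup and background at each summit, solved from fold enrichment and p, gave 1.23 and 1.87 ChIP fragments over each position of the genome in WT and 1.75 and 2.01 in DKO, so WT replicate 1 was the shallowest library. The WT input was deeper than the DKO input (1.95 against 1.45 fragments per position), and the DKO ChIP libraries had been scaled down to their input. With pileup and background of every ChIP library scaled to the lowest genome background (1.23 fragments per position), 1 p threshold for all and the depth of the inputs left as it was, the lists held 9033 and 10282 WT and 4986 and 4807 DKO peaks. The local background at shared sites, taken from the input around the peak, was 2.31 times the genome background in both WT lists and 4.14 times in both DKO lists. With the WT local background raised by the ratio of these medians, 1.79-fold, the lists held 7831 and 7599 WT peaks, and the fall was 0.66 on the log2 scale (limma adjusted p = 0.0025). Under the same setting the promoter fall differed from the distal one by 0.060 (limma adjusted p = 0.55). Since 1 input per genotype served both replicates, input and genotype cannot be told apart.

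The DKO peaks were almost entirely a subset of the WT peaks. Of the peaks in DKO replicates 1 and 2, 99.1% and 99.3% lay in a site of either WT list. Within a genotype, 92.6% of WT replicate 1 peaks lay in a site of replicate 2 and 72.8% the other way round, and the DKO replicates shared 87.0% and 90.5%. Of the 7730 sites called in both WT lists, 41.8% were in no DKO list and 45.9% were in both. The WT-only sites were weaker in WT cells than the shared sites: the median WT fold enrichment over local background was 5.97 at WT-only sites and 12.6 at shared sites, and the median width was 324 and 614 bp. The 2 WT libraries gave medians of 5.87 and 6.05 at WT-only sites and 12.1 and 13.0 at shared sites. Calls rest on the same values, so a weak site is more likely to be absent from the DKO lists and this gap is a description of the classes.

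The share of WT sites missing from the DKO lists fell steeply with WT strength. The 7730 sites were put in order of their mean −log10 q in WT and split into 10 classes of 773. In the weakest class, with a median WT fold enrichment of 4.53, 93.7% of sites were in no DKO list. In class 5, with a median of 7.64, the share was 48.3%, in class 8 it was 3.88%, and in the strongest, with a median of 24.4, it was 0.129%. A site of both WT lists was in no DKO list less often at promoters (34.8% of 3692) than away from them (48.2% of 4038). Within classes of like strength the shares were close: 93.2% of promoter and 93.9% of distal sites in the weakest class, 47.6% and 48.8% in class 5, and 16.3% and 13.8% in class 7. A list with a higher threshold loses its weak peaks first, and how much of this order the threshold alone would give was not tested.

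**Figure D2:**
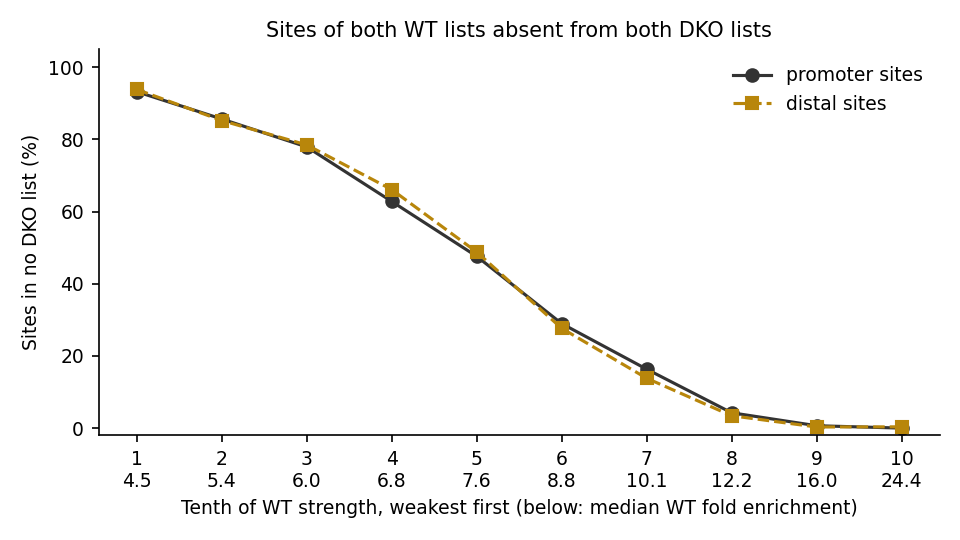
Share of sites called in both WT lists that were in neither DKO list (vertical axis, %), in 10 classes of 773 sites from the weakest to the strongest in WT; the median WT fold enrichment of each class stands below its number. Promoter (circles) and distal (squares) sites fall together from over 93% to under 1%.

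Promoters made up 39.8% of WT-only sites (1285 of 3232, Wilson 95% interval 38.1 to 41.5%) and 54.8% of shared sites (1946 of 3549, 53.2 to 56.5%); intervals cover counting error only. At shared promoter sites the median fold enrichment was 13.1 and 14.3 in WT and 7.62 and 7.26 in DKO, and at shared distal sites 11.1 and 11.9 in WT and 6.08 and 5.94 in DKO. WT-only sites had medians of 6.22 and 6.47 at promoters and 5.69 and 5.76 away from them. The summit of the strongest peak lay in an intron at 42.5% of WT-only and 37.8% of shared sites, between genes at 38.8% and 37.3%, and in an untranslated exon at 10.9% and 16.2%. Many sites had near neighbours: a site with a DKO call stood 1000 bp or less from 1036 WT-only sites (32.1%), and 1759 shared sites (49.6%) lay within 1000 bp of another such site. With lists of equal length, the top 4838 peaks of each, promoters made up 52.2% of WT-only and 56.5% of shared sites, so most of the gap was gone, and with the WT local background raised they made up 45.2% and 55.3%.

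Of the 10 strongest WT-only sites, 7 lay at promoters, and the sites near Ublcp1, Bptf and Gh did not. The first by mean −log10 q was the Ublcp1 site (chr11:44288203-44289099), an intergenic site with a fold enrichment of 17.5 and 18.6 in WT. The second lay at the start of Hmgn2 (chr4:133523475-133523915), with 22.2 and 24.5 in WT; Hmgn2 is itself deleted in DKO mice, and whether the peak is missing because its DNA is missing was not tested. Cox7a2l, a factor of respiratory chain assembly, had a promoter site with 17.4 and 21.7. Brd9, a subunit of the BAF remodelling complex, shared a start region with Trip13 and had 10.8 and 21.7, a wider gap between replicates than at the other sites. Bptf, the large subunit of the NURF remodelling complex, had an intronic site with 16.6 and 18.3. Grk6, a kinase of G protein-coupled receptors, had a promoter site with 13.2 and 12.6. The other members of the first 10 lay near 1500032L24Rik, Gh, Cd2ap and D4Ertd22e, with fold enrichments between 12.3 and 17.7.

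The strongest shared sites lay at or near promoters and were lower in DKO in fold enrichment. At Arrdc3, which encodes an arrestin-related trafficking adaptor, the values were 92.4 and 89.4 in WT and 29.6 and 23.5 in DKO. Ttpal had 49.7 and 51.3 in WT and 25.1 and 18.3 in DKO. Pcbp1, a poly(C) RNA-binding protein, had 62.2 and 75.6 against 29.4 and 28.0. Elk4, an ETS factor of the serum response, had 49.8 and 45.9 against 36.9 and 33.5, and Cdt1, a replication licensing factor, had 61.6 and 66.6 against 37.0 and 31.5. Zfp36, which promotes decay of cytokine mRNAs, had 42.6 and 44.8 against 28.6 and 26.3. Plekhm1, with neighbouring sites at 2 ranks, Zfp335 and Pnrc1 completed the first 10. At each of the 10 sites both DKO values were below both WT values, as they were at 89.4% of all shared sites. This order ranks the mean −log10 q of the 4 libraries, in which the DKO values take part.

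Across the 3549 shared sites, 2832 were called lower in DKO by fold enrichment (79.8%, limma, adjusted p under 0.05) and 11 higher (0.31%). The median change was −0.91 on the log2 scale, with an interquartile range of −1.22 to −0.58, and 96.6% of sites had a negative change. This fall joins 2 quantities, the signal in the ChIP library and the local background in the input. Both replicates of a genotype shared 1 input, so the limma p-values of fold enrichment hold no spread between inputs. Pileup over the genome background of the same library, which leaves out the local background, had medians of 37.4 and 36.4 in WT and 30.8 and 29.9 in DKO. On this scale, available at 3517 sites, 263 sites were lower (7.48%) and 9 higher (0.256%), with a median change of −0.28 (interquartile range −0.42 to −0.13) and 90.0% negative; 241 of the 263 were also called lower by fold enrichment. The median shared site thus had 0.532 of the WT fold enrichment and 0.825 of the WT pileup. With each library centred on its own median, which by construction balances the directions, 221 sites were lower (6.23%) and 267 higher (7.52%). The pileup scale was chosen after the values were seen.

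**Figure D3:**
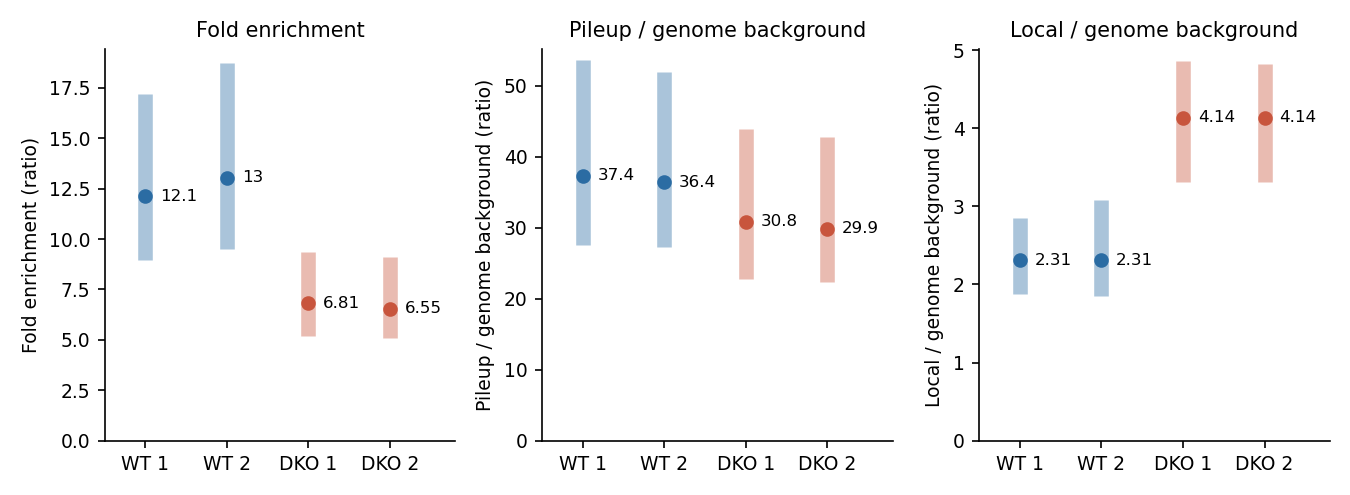
Fold enrichment, pileup over genome background and local over genome background (all ratios) at the 3549 sites called in all 4 lists, by library; points are medians and bars interquartile ranges. Fold enrichment falls from 12.1 and 13.0 to 6.81 and 6.55, pileup from 37.4 and 36.4 to 30.8 and 29.9, and the local background stands at 2.31 in both WT and 4.14 in both DKO libraries.

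Promoter and distal shared sites moved alike, with median changes of −0.88 and −0.93 in fold enrichment and −0.26 and −0.30 in pileup. Sorted into 5 classes by WT strength, the weakest class had a median change of −0.55 in fold enrichment and −0.15 in pileup, and the strongest −1.10 and −0.33. The WT lists alone ordered these classes, so part of this gradient can come from the ordering itself, which was not tested. Both WT values lay above both DKO values at 89.4% of shared sites in fold enrichment and at 63.9% in pileup. At WT-only sites the pileup over genome background was 16.2 and 15.5 in WT, and the 5th percentile over all peaks of the DKO lists was 15.4 and 14.9. With the ChIP values scaled to the lowest genome background, 3060 of the 3232 WT-only sites (94.7%) kept a peak in both WT lists, and with the WT local background raised as well 1887 (58.4%) did, while 414 kept none.

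The 5 largest falls in fold enrichment were between −2.69 and −2.22, and the pileup changes of the same sites lay between −0.70 and −0.40, below the median of −0.28 over all shared sites. At the start of H2-D1, a classical MHC class I gene, fold enrichment was 31.8 and 31.5 in WT and 5.03 and 4.77 in DKO, a change of −2.69 (SE 0.18, limma adjusted p = 0.00025). Pileup there was 79.6 and 70.6 times the genome background in WT and 58.2 and 55.3 in DKO, a change of −0.40 (limma adjusted p = 0.098). MHC class I genes have near-identical copies, so the values at H2-D1 are uncertain, and how reads were placed among the copies was not tested. A site 2374 bp from Plekhg2 changed by −2.43 in fold enrichment and −0.70 in pileup, and an intronic site of Ppp6r1, a regulatory subunit of protein phosphatase 6, by −2.31 and −0.58. The remaining sites among the 5 largest falls, 28372 bp from Tmsb4x and at the start of Fip1l1, changed by −2.23 and −2.22 in fold enrichment and by −0.67 and −0.52 in pileup. Of these 5, the Plekhg2, Ppp6r1 and Tmsb4x sites were called lower on both scales.

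The largest rise lay at the start of Hmgn1 (chr16:96349102-96349345), a gene deleted in DKO mice. Fold enrichment was 8.80 and 7.26 in WT and 24.5 and 21.1 in DKO, a change of 1.51 (SE 0.20, limma adjusted p = 0.00030). Pileup was 24.4 and 25.7 times background in WT and 66.8 and 55.3 in DKO, a change of 1.28 (limma adjusted p = 0.0014). Both WT values were below both DKO values on each scale, the opposite of the general direction; how the targeted allele is built was not tested. The next rises were near Irs2 (1.05), Tiparp (0.96), Zc3h12a (0.89) and Zmym5 (0.85), and none of these 4 was called on the pileup scale, where Tiparp and Zc3h12a had values of −0.23 and −0.28.

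The sites with the largest changes in pileup were named after their values were seen. An intronic site of Snx29 went from 12.2 and 12.3 to 30.3 and 27.9 times background (log2 change 1.25, limma adjusted p = 0.0014), the start of Btaf1 from 21.9 and 16.1 to 37.7 and 38.8, and H2-T23 from 18.7 and 18.7 to 37.1 and 29.4. At the Snx29 and Btaf1 sites fold enrichment was lower in DKO, by 0.68 and 0.85. The other sites called higher lay near Pxn, Taok3 and Jarid2 and, at 2 sites, Fam69a. The largest falls in pileup were near Lrp2bp (−1.17), at Rnase6 (−1.15), 41404 bp from the start of Ebf1 (−1.09), near Irgc1 (−1.05) and in Jak1 (−0.998), and all 5 were lower in fold enrichment as well. EBF1 is a pioneer factor of the B lineage, and its distal site went from 76.3 and 51.4 to 27.4 and 31.4.

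Sites gained in DKO cells were few. The 16 sites called in both DKO lists and no WT list, 2 of them at promoters, had median fold enrichments of 6.72 and 6.37. The strongest lay 368284 bp from Arid1b (11.6 and 14.1), in an intron of Fam69a (8.44 and 6.77) and 22736 bp from Depdc1b (6.92 and 5.97).

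A promoter peak says that IKAROS was found near a gene's start and does not measure its transcript. Of 22372 protein-coding genes, 1828 (8.17%) had a promoter peak in all 4 lists, 882 (3.94%) in both WT lists only, 1187 in other patterns and 18475 in none. Of 14 B cell markers, 11 had a promoter peak in all 4 lists and 2, among them Cd22, in both WT lists only. None of the markers of T cells (10), myeloid cells (10), NK cells (5), erythroid cells (5), fibroblasts (5) or stem cells (5) had a promoter peak in any list. The same held for 82.6% of all genes, so only the occupied B cell markers speak to the labelled cell type. In the limma fits, 1834 genes had a shared promoter site; of these 1458 (79.5%) were lower and 4 higher in fold enrichment, and of 1808 with a pileup value 102 (5.64%) were lower and 4 higher.

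Genes of B cell receptor signalling, which carries the antigen signal from the surface to NF-κB and calcium, were widely occupied. Of 24 matched genes, 15 (62.5%) had promoter peaks in all 4 lists, 4 (16.7%) in both WT lists only and 2 in other patterns, against 8.17% and 3.94% of all genes for the first pair. Among the strongest were Bcl10 (fold enrichment 30.1 and 34.8 in WT, 21.1 and 19.4 in DKO), a scaffold of NF-κB activation, and Inpp5d (33.9 and 27.9 against 9.60 and 8.60), the SHIP1 phosphatase that limits the signal. The WT-only members included Plcg2, the phospholipase of the calcium signal (10.4 and 12.3), Fcgr2b, the inhibitory Fc receptor (7.77 and 8.36), and Cd22, an inhibitory lectin (7.25 and 8.96). A merged site can reach into the promoter window while its DKO peaks lie beyond it, so a gene can be WT-only by its promoter peaks and still have a shared site in the fits. Of 16 members with a shared site, 13 (81.2%) were lower in fold enrichment, close to the 79.5% of all genes, and 3 (18.8%) in pileup, against 5.64%, 0 were higher on either scale, and the median changes were −0.995 and −0.41, against −0.89 and −0.25 over all genes.

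The 3 members lower in pileup, all lower in fold enrichment as well, were the signalling chains of the receptor and a paracaspase. Cd79a had pileups of 43.9 and 37.5 in WT and 24.6 and 20.9 in DKO (log2 change −0.84, limma adjusted p = 0.022). Cd79b, the other chain, had 31.7 and 32.6 against 17.1 and 22.9 (−0.70, limma adjusted p = 0.036). Malt1, the paracaspase that acts with BCL10, had 42.2 and 45.5 against 28.0 and 26.4 (−0.69, limma adjusted p = 0.034). The Bcl10 promoter had 69.0 and 70.6 against 74.8 and 66.7, a pileup change of 0.02 with overlapping genotypes.

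B cell transcription factors had promoter peaks in all 4 lists at 14 of 28 matched genes (50%, against 8.17% of all genes). In both WT lists only there was 1, Mef2c (8.99 and 7.83), or 3.57% against 3.94% of all genes, and 6 had other patterns. Rel, an NF-κB subunit, had fold enrichments of 42.8 and 48.6 in WT and 26.1 and 20.4 in DKO. Tcf3, which encodes E2A, had 38.2 and 32.1 against 17.5 and 14.0, Bach2, a repressor that holds back plasma cell fate, 29.9 and 34.4 against 20.8 and 19, and Pax5, the guardian of B cell identity, 19.8 and 24.3 against 10.4 and 9.15. Of 14 members with a shared site, 13 were lower in fold enrichment, and of 13 with a pileup value 0 were lower and 0 higher at an adjusted p under 0.05 in limma, against 79.5% and 5.64% of all genes lower on these scales. Pax5 had pileups of 56.0 and 62.6 in WT and 56.5 and 49.8 in DKO.

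The IKAROS family and its partners held, among 22 genes, 7 with a promoter peak in all 4 lists (31.8%, against 8.17% of all genes). A further 1 was WT-only (4.55%, against 3.94% of all genes) and 3 had other patterns. Ikzf1 itself had a promoter site with fold enrichments of 8.31 and 6.69 in WT and 6.13 and 6.14 in DKO, a change of −0.28 (limma adjusted p = 0.20), and pileups of 35.7 and 30.5 against 33.1 and 30.9. The genotypes overlapped at this site in pileup. Ikzf3, which encodes the related AIOLOS, changed by −1.09 in fold enrichment (limma adjusted p = 0.00076) and −0.30 in pileup (limma adjusted p = 0.19). Chd4, the ATPase of NuRD, was the WT-only member, with 5.88 and 6.01.

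MHC class II genes, through which B cells present antigen, had promoter peaks in all 4 lists at 9 of 13 genes (69.2%, against 8.17% of all genes), in other patterns at 2 and in both WT lists only at 0. H2-Ob had 38.4 and 33.3 in WT and 15.8 and 16.8 in DKO, and H2-Eb1 27.8 and 27.9 against 14.5 and 13.6. Of 9 class II members with a shared site, 8 were lower in fold enrichment and 0 in pileup, against 79.5% and 5.64% of all genes. Their median changes were −0.88 and −0.19. In pileup the shared site of H2-Ob changed by −0.29 (limma adjusted p = 0.20) and that of H2-Eb1 by −0.23 (limma adjusted p = 0.29). Ciita, the coactivator of class II transcription, had a peak in WT replicate 1 only (3.76). Among adhesion and homing genes, 7 of 14 (50%) had peaks in all 4 lists, led by the chemokine receptors Cxcr4 (20.7 and 26 against 11.4 and 12.2) and Cxcr5, which guides B cells to follicles (21.1 and 21.5 against 7.57 and 8.19). All 7 were lower in fold enrichment and 1 in pileup, against 79.5% and 5.64% of all genes with a shared site, and the latter was S1pr1, the receptor for exit from lymphoid organs, which went from 37.4 and 34.8 to 24 and 25.4 (−0.55, limma adjusted p = 0.047).

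Energy supply and ribosomal protein genes held members of both patterns. Of 14 glucose and energy genes, 5 (35.7%) had peaks in all 4 lists and 3 (21.4%) were WT-only, against 8.17% and 3.94% of all genes: Stk11, the LKB1 kinase (7.40 and 9.55), Slc2a1, the GLUT1 transporter (3.85 and 9.29), and Ldha, lactate dehydrogenase A (4.54 and 4.66). Txnip, an inhibitor of glucose uptake, had a shared site lower on both scales (fold enrichment 14.6 and 11.7 against 7.15 and 5.72, pileup change −0.65, limma adjusted p = 0.045). Of 81 ribosomal protein genes, 15 (18.5%) had peaks in all 4 lists and 11 (13.6%) in both WT lists only, against 8.17% and 3.94% of all genes. Rpl10 had 29.7 and 29.7 in WT and 15.8 and 15.5 in DKO, and Rpl7a, WT-only, had 9.37 and 13.2. Of 15 ribosomal protein genes with a shared site, 12 (80%) were lower in fold enrichment and 0 in pileup, against 79.5% and 5.64% of all genes. In pileup Rpl10 changed by −0.26 (limma adjusted p = 0.24).

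The early lymphoid list stood empty, and the cell cycle and Notch lists held a few members of each pattern. None of 15 pre-B cell and early lymphoid genes, such as Rag1 and Igll1, had a promoter peak in any list, and 82.6% of all genes had none. Of 16 cell cycle genes, 3 had peaks in all 4 lists: Cdkn1b, the p27 inhibitor (24.1 and 20.4 against 6.64 and 7.28), E2f2 (10.4 and 11.5 against 5.10 and 3.64) and Myc (5.84 and 7.24 against 5.45 and 3.79). In pileup Cdkn1b changed by −0.31 (limma adjusted p = 0.17) and E2f2 by −0.20 (limma adjusted p = 0.39). Rb1 was WT-only, with 7.44 and 8.38 (6.25% of this list, against 3.94% of all genes), and 3 had other patterns. The 18.8% of this list with peaks in all 4 lists stood beside 8.17% of all genes. Of 10 Notch pathway genes, 1, Maml1, had peaks in all 4 lists (10%, against 8.17% of all genes). Hes1, a Notch target that IKAROS is known to oppose in T cells, was WT-only with 5.11 and 4.55. It was the 1 WT-only member (10%, against 3.94% of all genes), and 2 had other patterns.

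**Figure D4:**
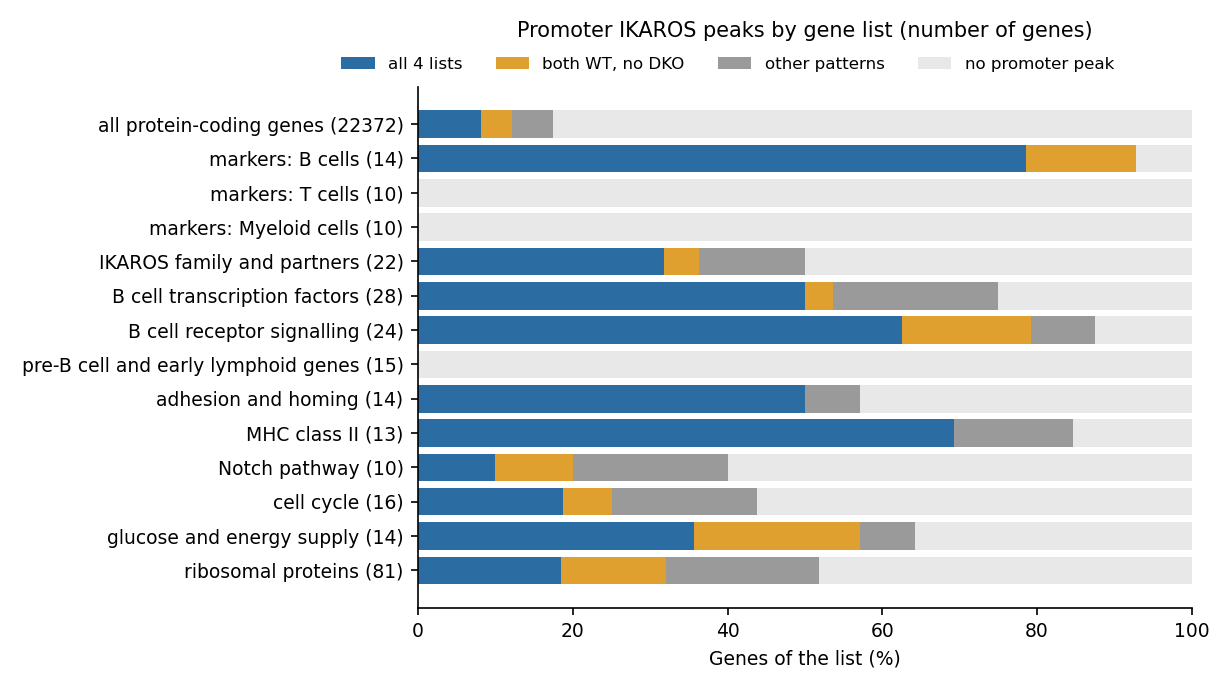
Share of genes (horizontal axis, %) in each list with a promoter IKAROS peak in all 4 lists, in both WT and no DKO list, in another pattern or in none; the number of genes stands beside each name. B cell markers and receptor signalling are mostly occupied in all 4 lists, whereas early lymphoid genes and markers of T and myeloid cells have no promoter peak.

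The letters under WT-only and shared summits were searched for 11 motifs. Only the same 3 are described here, and for none of the 11 were differences between the sets tested. In the 101 bp around distal summits TGGGAA was present at 13.0% of WT-only and 12.5% of shared sites, against 9.60% and 9.42% of windows 3000 bp to either side. At promoter summits it was present at 7.63% and 7.86%, against 9.42% and 8.97% of their flanks and 7.67% of such windows at all 22356 gene starts. AGGAAG was present at 17.6% of WT-only and 14.7% of shared distal summits, and 12% and 12.1% of the flanks. Both ETS motifs end in GGAAG after a different base, so the same GGAAG is never counted for both. CCGGAAG was present at 1.63% and 2.16% of promoter summits, at 0.350% and 0.411% of their flanks, which hold less G and C, and at 6.54% of gene starts. Base composition differed between summits and flanks (G and C made up 48.1% and 50.03% of distal summit windows and 45.7% of the flanks of both), and matches are a description of letters, not of bound sites.

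Matches to ETS motifs were denser beside the called IKAROS summits than under them. Summits are those placed by the authors' peak caller, and the part that its placing of fragments has in this offset, here and between peaks, was not tested. At promoter summits of shared sites CCGGAAG had 0.874 matches per 100 summits in the central 50 bp and 3.41 in 50-bp bins centred 150 to 250 bp away, against 0.683 at 500 to 950 bp. WT-only sites gave 0.700, 3.32 and 0.665. At distal shared sites AGGAAG had 8.23 matches at the summit and 13.1 at 150 to 250 bp, and WT-only sites 11.4 and 12.9. The dip was present in each of the 4 lists: CCGGAAG at promoter summits went from 0.872, 0.922, 0.700 and 0.795 in the centre to 3.04, 3.28, 3.05 and 3.16 beside it. TGGGAA at distal summits had the opposite shape, with 7.81 in the centre and 4.26 beside it at WT-only sites and 7.30 and 4.45 at shared sites. ETS1 peaks of the same cells had their ETS motifs in the centre, with 15.3 matches of CCGGAAG at promoter summits of WT replicate 1 against 1.97 at 150 to 250 bp.

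**Figure D5:**
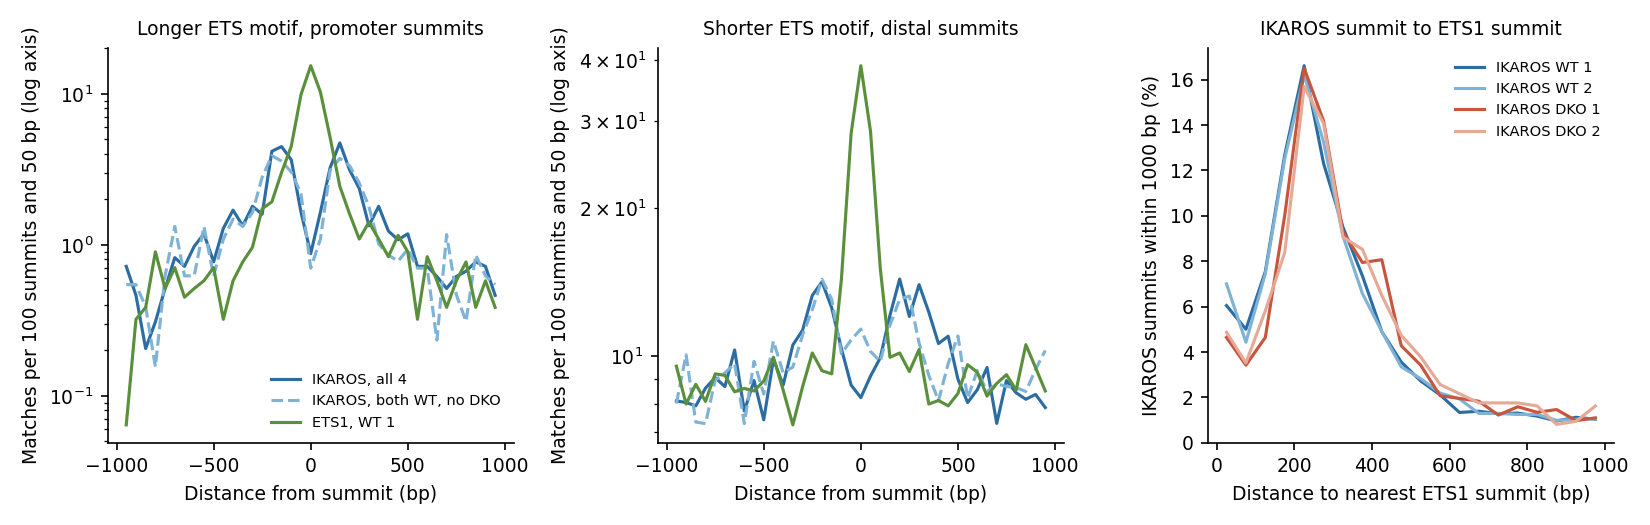
Left and middle, matches to CCGGAAG at promoter summits and to AGGAAG at distal summits per 100 summits in 50-bp bins (log axis) by distance from the IKAROS summits of shared and WT-only sites and from ETS1 summits of WT replicate 1; right, distance from each IKAROS summit to the nearest ETS1 summit of the same-numbered library, as % of IKAROS summits with one within 1000 bp. ETS1 profiles peak at 0 and IKAROS profiles on both sides of it, and the right panel peaks between 200 and 250 bp in all 4 libraries.

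Called IKAROS and ETS1 summits lay at a like distance from each other. Of IKAROS summits in the WT lists, 41.1% and 38.7% had an ETS1 summit of the same-numbered library within 1000 bp, and of these 41.6% and 42.0% had it at 150 to 300 bp and 6.05% and 7.003% within 50 bp. In the DKO lists, where ETS1 had 1220 and 1098 peaks against 4524 and 4561 in WT, 16.3% and 15.3% of IKAROS summits had a near ETS1 summit, and 40.7% and 38.2% of these lay at 150 to 300 bp. Neighbouring IKAROS summits were common, with 33.7% and 33.6% of WT and 31.3% and 31.1% of DKO peaks followed by another summit within 1000 bp, at median distances of 540.5, 531, 556 and 552 bp. ETS1 lists had 4.24%, 4.21%, 1.56% and 2.004%. An IKAROS summit stood on each side of 740 of the 4524 ETS1 summits of WT replicate 1 (16.4%) and of 813 of 4561 in replicate 2 (17.8%), between 75 and 500 bp away.

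Promoter summits lay on both sides of gene starts, more of them downstream. Upstream of the start lay 38.6% of WT-only and 35.6% of shared promoter summits, with 24.05% and 21.07% of all summits 100 to 400 bp upstream. The median position was 98.0 bp downstream at WT-only and 102.5 bp at shared sites, and only 6.30% and 5.81% of summits lay within 50 bp of the start. The medians of the 4 lists lay between 97.0 and 103 bp, 101 and 97.0 bp in WT. ETS1 promoter summits lay 24.5 to 31.0 bp upstream, with 36.7% to 43.6% within 50 bp of the start. What sets the offset of IKAROS summits was not tested.

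Over all sites, ETS1 peaks overlapped a larger share of shared than of WT-only sites, but not in each class of WT strength. The 2 WT lists of ETS1 overlapped 36.5% and 36.9% of shared sites and 22.2% and 21.0% of WT-only sites. At distal sites the shares were 47.0% and 46.6% against 25.3% and 23.9%. In the weakest of 3 classes of WT strength ETS1 overlapped 18.7% and 17.3% of 75 shared and 21.5% and 19.99% of 1401 WT-only distal sites, and 16.7% and 16.7% of 42 shared and 17.1% and 15.6% of 770 WT-only promoter sites, with no clear order. In the middle class the shares came close, with 35% and 33.5% of 520 shared and 34.8% and 33.1% of 520 WT-only distal sites, and with 17.6% and 17.8% of shared and 18.5% and 18.1% of WT-only promoter sites. In the strongest class, which held few WT-only sites, ETS1 overlapped 31.8% and 33.1% of shared and 17.2% and 17.2% of 29 WT-only promoter sites, and 55.3% and 55.6% of shared and 38.5% and 53.8% of 26 WT-only distal sites. The IRF8 lists of WT cells overlapped 5.21% and 4.93% of shared and 3.65% and 3.84% of WT-only sites, and the PAX5 lists, which were short, 2.03% and 2.28% against 0.681% and 0.712%. Peaks of H3K27ac from WT fibroblasts, another cell type, overlapped 86.4% and 86.4% of shared and 82.8% and 83.0% of WT-only promoter sites, and 27.2% and 26.1% against 20.1% and 19.7% of distal sites.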

How the data were processed

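The members and gene lists were chosen with earlier results of these data known. The authors trimmed reads with cutadapt 1.16, mapped them to mm9 with BWA 07.17, removed blacklisted regions and called narrow peaks in each library against input with MACS2 2.1.1.20160309, per the labels and methods. The deposited fold enrichment is a ratio of pileup to local background at the summit, beside −log10 p and −log10 q and a score, all computed by the authors; the lowest −log10 q was 2.05. No read counts were used, and p-values measure the spread between ChIP libraries. Both replicates of a genotype shared 1 input, so this spread holds no variation between inputs.

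Peaks were merged with Python 3.11.15 (pandas 2.3.3, numpy 2.4.6, scipy 1.17.1, pysam 0.24.0), and starts came from GENCODE vM1 on the same build. Pileup and local background were solved from fold enrichment and p. A solution was kept only where the pileup was a whole number of reads within 0.01. The DKO read scale was chosen to give such pileups, so this is no check of accuracy. Unsolved were 5 and 35 WT peaks with too small a p. Moderated tests used limma 3.58.1 in R 4.3.3 with Benjamini-Hochberg adjustment: log2 of peak number plus 1 over 16 antibodies in 64 libraries, and log2 fold enrichment over all shared sites, without a replicate block. The merging of sites into classes, the solving of pileups and the limma fits were tested on simulated data, and the other steps were not. Sites were named by rule: the 10 strongest WT-only and shared sites, the 3 strongest DKO-only sites, and the 5 largest called falls and rises; list members by strongest promoter site, S6 kinases left out of the ribosomal list, and Spi1, Syk and Ptcra unmatched. 1 list member is not reported here. Alternatives are given in the closing section.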

Additional observations from a re-analysis of the deposited data

How the results depend on the processing

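The fall in peak number kept its direction and its side of the threshold under 11 alternatives, between −1.15 and −0.66 (limma adjusted p between 0.0012 and 0.044), as did the distal fall under 12, between −1.28 and −0.69 (limma adjusted p up to 0.031). With the local background raised the distal fall was −0.69 and the promoter fall −0.63. The promoter fall ranged from −1.01 to −0.74 with a library left out (limma adjusted p up to 0.057). The difference between promoter and distal falls missed the threshold with chromosomes 1 to 19 alone (0.28), with the 5 B cell antibodies alone (0.28), with the replicate block (0.28, limma adjusted p = 0.073) and with the local background raised (0.060), and ranged from 0.23 to 0.33 with a library left out (limma adjusted p between 0.037 and 0.097), missing the threshold in each case but without DKO replicate 2. The replicate numbers share only a number: deviations of same-numbered libraries had correlations of −0.061 in fold enrichment and −0.015 in pileup over 2 pairs.

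WT-only sites numbered 464 with the top 4838 peaks of each list (promoter share 52.2%, median WT fold enrichment 9.02), 1869 with peaks within 1000 bp merged (41.9%, 6.11) and 1901 with the local background raised (45.2%). At q of at most 0.0001 their median fold enrichment was 6.11, and with a 2500-bp promoter window their promoter share was 46.8%. With a library left out they numbered 3632 to 6269, the highest without WT replicate 1, with promoter shares of 37.5% to 41.9% and medians of 5.33 to 6.12. Shared sites had promoter shares of 56.5% and medians of 13.6 with the top 4838 peaks, 60.6% and 13.6 with merged peaks, 58.7% with the wider window and 52.5% by the strongest summit, and medians of 11.6 to 13.0 with a library left out. Sites called lower numbered 221 after centring and 263 by pileup, and 2474 to 2853 with a library left out; those called higher numbered 267 after centring and 8 to 19 with a library left out, 19 without WT replicate 2. The gap in promoter share between WT-only and shared sites was thus far smaller with lists of equal length. The cause of these moves was not tested. With a library left out, a lone library was assumed to vary like the others. Peak lists hold no values below the threshold, so a site in no DKO list is below that threshold and not shown to be unbound.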
